A study of Mus musculus with 18 samples.

Results

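The 10 genes described here, Pou2f3, Gfi1b, Dclk1, Trpm5, Rgs13, Sh2d6, Kctd12, Nrep, Bmx and Ptpn6, are regulators and markers of the intestinal tuft cell. They were chosen by symbol, and all 10 were found in each of 3 tables that listed 17759 genes for crypts, 17423 for day 1 enteroids and 17612 for day 3 enteroids. The tables held bulk RNA sequencing of the mouse duodenum, with 3 WT mice (labelled Mtgr1+/+) and 3 mice labelled Mtgr1-/-, age-matched littermates that carry a germline null allele of the transcriptional co-repressor MTGR1. By the mouse numbers in the labels, each mouse gave 1 library of freshly isolated crypts, 1 of enteroids (three-dimensional epithelial cultures) grown from those crypts for 24 h, and 1 of enteroids grown for 72 h, so that 18 libraries came from 6 mice of 8 to 12 weeks. The labels name no treatment.

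Tuft cells are rare epithelial cells that sense luminal metabolites and parasites through a taste-like signalling pathway and answer with interleukin-25, acetylcholine and lipid mediators. POU2F3 is the transcription factor without which the lineage does not form. In helminth infection, interleukin-25 from tuft cells acts on innate lymphoid cells, whose interleukin-13 acts back on the epithelium and raises the number of tuft cells. In bulk RNA, fewer tuft cells and less of a transcript per tuft cell cannot be told apart.

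The libraries held 22035316 to 29661084 reads recovered from the normalized counts. Cbfa2t2, the gene that encodes MTGR1, did not check the labels: it lay between 523 and 614 normalized counts in the WT crypts and between 466 and 697 in the crypts labelled Mtgr1-/- (log2 fold change -0.05, limma adjusted p = 0.917), with no drop at day 1 or day 3 either, and which part of the gene the allele removes is not given in the sources used here. The labels are therefore used as given ("libraries labelled Mtgr1-/-", or null in the plots). The stem cell gene Olfm4 did separate them, at 25673 to 33032 in WT crypts against 133 to 512 in the others. Epithelial markers were abundant in every library (Epcam, Cdh1, Vil1, Krt8 and Krt20 summed to at least 104259 normalized counts), whereas WT crypt mouse 3 stood apart in leukocyte RNA, with 27491 normalized counts over 15 leukocyte markers against 782 to 3275 in the other 5 crypt libraries. WT mouse 3 and null mouse 1 had high Xist and the other 4 mice had low Xist, so each genotype held 1 mouse of one sex and 2 of the other.

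Divided by the length of the merged exons in kilobases, the order of the members in WT crypts ran from Ptpn6 (304 ± 185 normalized counts per kb, SD, n = 3) and Kctd12 (143 ± 52.7), over Trpm5 (87.9 ± 28.6), Sh2d6 (82.7 ± 27.9) and Rgs13 (82.2 ± 35.5), to Dclk1 (22.2 ± 3.41), Bmx (20.1 ± 4.53), Pou2f3 (19.5 ± 4.68), Nrep (6.26 ± 1.70) and Gfi1b (4.54 ± 1.22). Neighbours within the middle trio, within the trio of Dclk1, Bmx and Pou2f3, and within each end pair overlapped in their ranges over the 3 mice. Both transcription factors thus stood near the bottom of the list in level. Places in this order depend on the length used. The merged exons held 15296 bases against 7962 in the longest transcript of Dclk1, and 6398 against 4123 in Trpm5. Ptpn6 ranged from 195 to 518 per kb, with its highest value in WT mouse 3, the library with the most leukocyte RNA. Dclk1, Kctd12 and Ptpn6 overlap small or antisense genes that were not listed in the crypt table, and Trpm5 overlaps Tssc4 on the other strand, which averaged 397 normalized counts in crypts. The library kit marked the strand, and whether counting used it is not given in the sources used here.

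In freshly isolated crypts the tuft cell genes were higher in the libraries labelled Mtgr1-/- on average, with a wide spread among the 3 null mice, and 1 of the 10 genes passed the test. This comparison asked what the loss of MTGR1 does to the tissue before culture. The gene that rose was Gfi1b, a zinc-finger transcriptional repressor of tuft and blood lineages (ENSMUSG00000026815.14, chr2:28609450-28621982, minus strand, GRCm38 as are the coordinates that follow). It had 8.62, 5.94 and 10.4 normalized counts in WT crypts of mice 1, 2 and 3 and 85.7, 26.6 and 72.2 in the null crypts of mice 1, 2 and 3. The groups did not overlap, and the log2 fold change was 2.62 ± 0.53 (SE, n = 3 per genotype, limma on log2 of the normalized count + 1, adjusted p = 0.0404 over 12980 genes). Over the 3 libraries of a genotype, 24 reads (exact 95% Poisson interval 15.38 to 35.71, counting error only) stood against 190 reads (163.94 to 219.02). Gfi1b passed the filter of a mean of 10 through the null libraries alone, so its count among the tested genes supports nothing by itself. Of all genes tested in crypts, 1.58% were called higher and 3.15% lower.

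**Figure D1:**
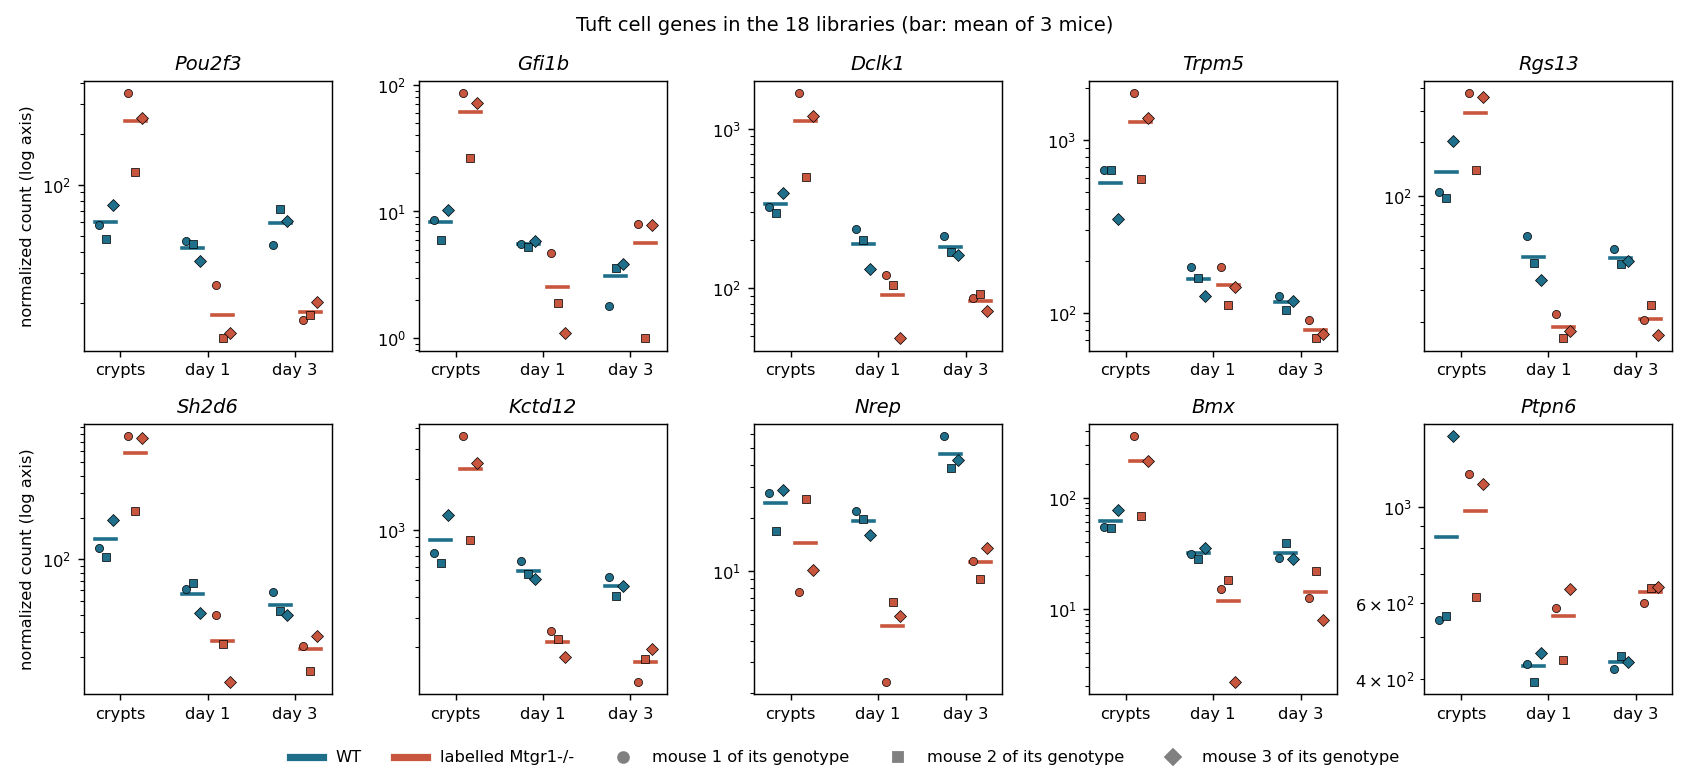
Normalized counts (log axis, 1 panel per gene with its own scale) of the 10 tuft cell genes in 18 libraries, at crypts, day 1 and day 3 of culture; points are libraries, the symbol gives the mouse within its genotype, and bars are means of 3 mice. In 8 panels the red null points lie higher on average in crypts and lower in day 1 enteroids; Nrep is lower at all 3 stages and Ptpn6 higher at all 3.

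Pou2f3 itself, which directs the lineage (ENSMUSG00000032015.16, chr9:43123939-43210369, minus strand), had 57.5, 47.5 and 76.0 normalized counts in WT crypts and 348, 119 and 247 in null crypts. All 3 null libraries lay above all 3 WT libraries, and the log2 fold change was 1.86 ± 0.41 (limma, n = 3 per genotype, adjusted p = 0.053), which missed the threshold of 0.05. Dclk1, a microtubule-associated kinase used as the classical tuft cell marker (chr3:55242364-55539068, plus strand), had 325, 296 and 397 in WT and 1671, 502 and 1199 in null crypts. Its groups did not overlap either, at a log2 fold change of 1.57 ± 0.41 (limma adjusted p = 0.0896, n = 3 per genotype). Sh2d6, an SH2-domain adaptor (chr6:72513641-72521707, minus strand), read 121, 105 and 193 in WT and 765, 223 and 750.1 in null crypts. The log2 fold change was 1.89 ± 0.50 (limma adjusted p = 0.0925, n = 3 per genotype).

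For the remaining members the null mouse 2 library reached into the WT range. Trpm5, the cation channel that depolarises the cell at the end of the taste cascade (chr7:143069153-143094642, minus strand), had 668, 667 and 351 normalized counts in WT crypts and 1854, 592 and 1334 in null crypts (log2 fold change 1.07 ± 0.45, limma adjusted p = 0.263). Kctd12, an auxiliary subunit of GABA-B receptors (chr14:102976581-102982637, minus strand), had 729, 634 and 1228 against 3581, 867 and 2476 (1.25 ± 0.52, adjusted p = 0.263). Rgs13, a regulator of G-protein signalling (chr1:144138654-144177372, minus strand), had 106, 98.0 and 204 against 376, 141 and 358 (1.05 ± 0.45, adjusted p = 0.278). In all 3 genes null mice 1 and 3 lay above every WT mouse while null mouse 2 did not.

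Because POU factors bind an octamer, the promoter windows of the members (RefSeq, GRCm38.p6, 250 bases before to 50 after a gene start) were searched on both strands for TGCAAAT. These letters are a part of the octamer and read ATTTGCA on the other strand. 8 members had a window, 9 windows in all, and 1 of the 9 held the letters, beside 4.02% of 32851 windows in the mouse genome. That window belongs to Kctd12, and the upstream bases of Kctd12 are shown because no other member window held the letters. The 250 bases before its start lie on the minus strand of chromosome 14, at chr14:102982638-102982887, and are written 5′ to 3′ with the match in capitals, which begins 159 bases before the start.
Kctd12 upstream: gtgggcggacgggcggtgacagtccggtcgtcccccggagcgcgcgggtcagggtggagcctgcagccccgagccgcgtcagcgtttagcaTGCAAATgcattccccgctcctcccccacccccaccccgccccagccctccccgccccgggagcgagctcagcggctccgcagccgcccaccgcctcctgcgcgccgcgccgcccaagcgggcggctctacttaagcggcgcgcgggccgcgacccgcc
A match of letters is a description of this stretch and not a measured site.

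Bmx, a TEC-family tyrosine kinase (chrX:164192842-164258193, minus strand), had 54.6, 53.5 and 78.3 in WT crypts and 356, 68.5 and 213 in null crypts (log2 fold change 1.49 ± 0.57, limma adjusted p = 0.225). Ptpn6 encodes the phosphatase SHP-1 and is expressed in leukocytes as well as in tuft cells (chr6:124720707-124738714, minus strand). It had 547, 558 and 1453 in WT crypts and 1192, 617 and 1128 in null crypts (0.30 ± 0.43, adjusted p = 0.768), so that its highest value was in WT mouse 3, the library with the most leukocyte RNA. Nrep, a small neuronal regeneration-related protein, was the only member with a negative estimate, at 27.8, 16.8 and 28.8 in WT and 7.53, 25.7 and 10.2 in null crypts (-0.86 ± 0.54, adjusted p = 0.457).

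**Figure D2:**
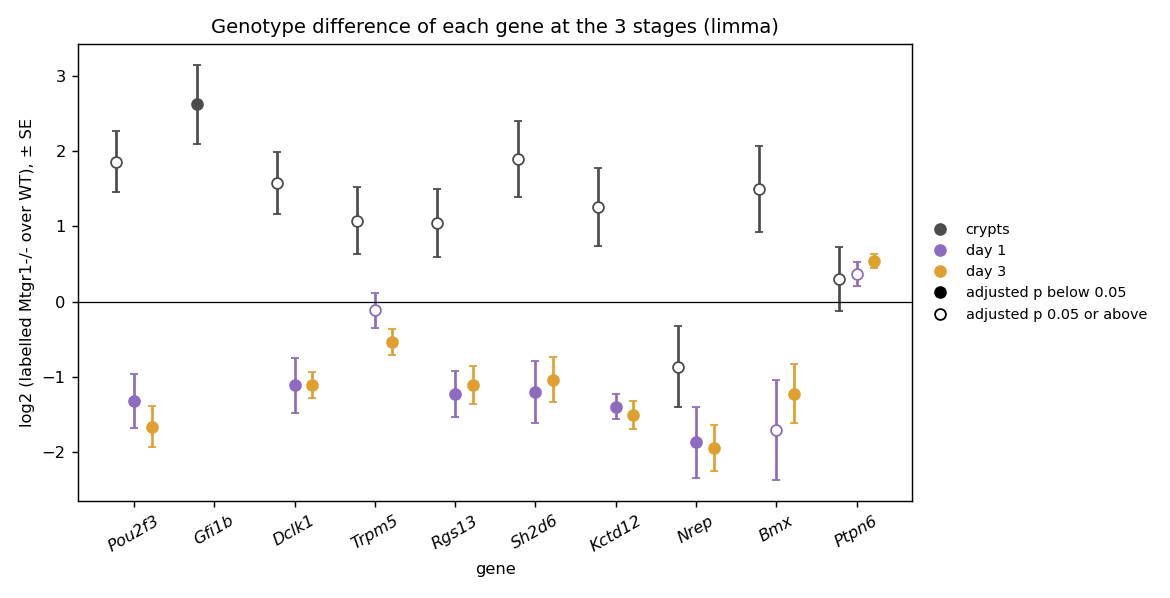
Log2 fold change of libraries labelled Mtgr1-/- over WT with its SE (limma, n = 3 per genotype) for each gene at 3 stages; filled points have an adjusted p below 0.05. Of the 10 crypt points only Gfi1b is filled, whereas 6 of 9 genes at day 1 and 8 of 9 at day 3 are filled below 0; Gfi1b was too low to be tested in enteroids.

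Counted without the multiple-test adjustment, 7 of the 10 members had a p below 0.05 and were higher, beside 8.53% of all genes tested. In 4 members (Pou2f3, Gfi1b, Dclk1 and Sh2d6) all null crypts lay above all WT crypts, as was so for 12% of all genes. Gfi1b is among both the 7 and the 4. It passed the filter through the null libraries alone, so its place in these counts supports nothing by itself. The median log2 fold change of the members was 1.37, beside 0.01 over all genes. The call rested on single libraries: 0 members passed when any 1 of the 3 WT libraries, null mouse 1 or null mouse 3 was left out (adjusted p of Gfi1b 0.0555 to 0.147), and 6 passed when null mouse 2 was left out, namely Pou2f3, Gfi1b, Dclk1, Sh2d6, Kctd12 and Bmx. Weighting libraries by their fit called 9 members higher, and DESeq2 on the recovered reads called 6. These settings also called more of all genes higher: 982 of 12980 with weights and 584 of 12965 by DESeq2. The fit as reported called 205 of 12980 higher, and that without null mouse 2 called 229 of 13024.

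The wide spread in null crypts ran through the whole set. Null mouse 2 was the lowest of the 3 null mice in 9 of the 10 members and the highest in Nrep, and null mouse 1 was the highest in 9. In WT crypts, mouse 3 was the highest in 9 of the 10 members, with Trpm5 as the exception, where mouse 3 was the lowest.

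Of the markers of other cells, the mast cell sum took this order among the null crypts. The leukocyte sum also had null mouse 2 lowest, but null mouse 3 highest. The 6 mast cell markers (Cpa3, Mcpt1, Mcpt2, Kit, Fcer1a and Tpsb2) summed to 318, 282 and 1029 normalized counts in WT crypts and to 2927, 414 and 1603 in null crypts, so that null mice 1, 3 and 2 took the same order as in most tuft cell genes. Mcpt1, a mucosal mast cell protease, had 51.7, 64.3 and 158 in WT and 1575, 206 and 876 in null crypts (log2 fold change 3.01 ± 0.77, limma adjusted p = 0.0815, singled out after its values were seen). Kit, the largest part of the WT sums, had 245, 183 and 770 in WT and 432, 107 and 266 in null crypts. The leukocyte sum was 3097, 2681 and 27491 in WT and 1561, 782 and 3275 in null crypts, and 0 of 15 leukocyte markers passed by limma in either direction, with 1 lower at an unadjusted p below 0.05. Without both mouse 3 libraries the estimates were 1.94 for Pou2f3, 2.58 for Gfi1b, 1.56 for Dclk1 and 0.65 for Trpm5, and 0 members passed with 2 mice per genotype. The part of these cells in the tuft cell values was not tested.

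**Figure D3:**
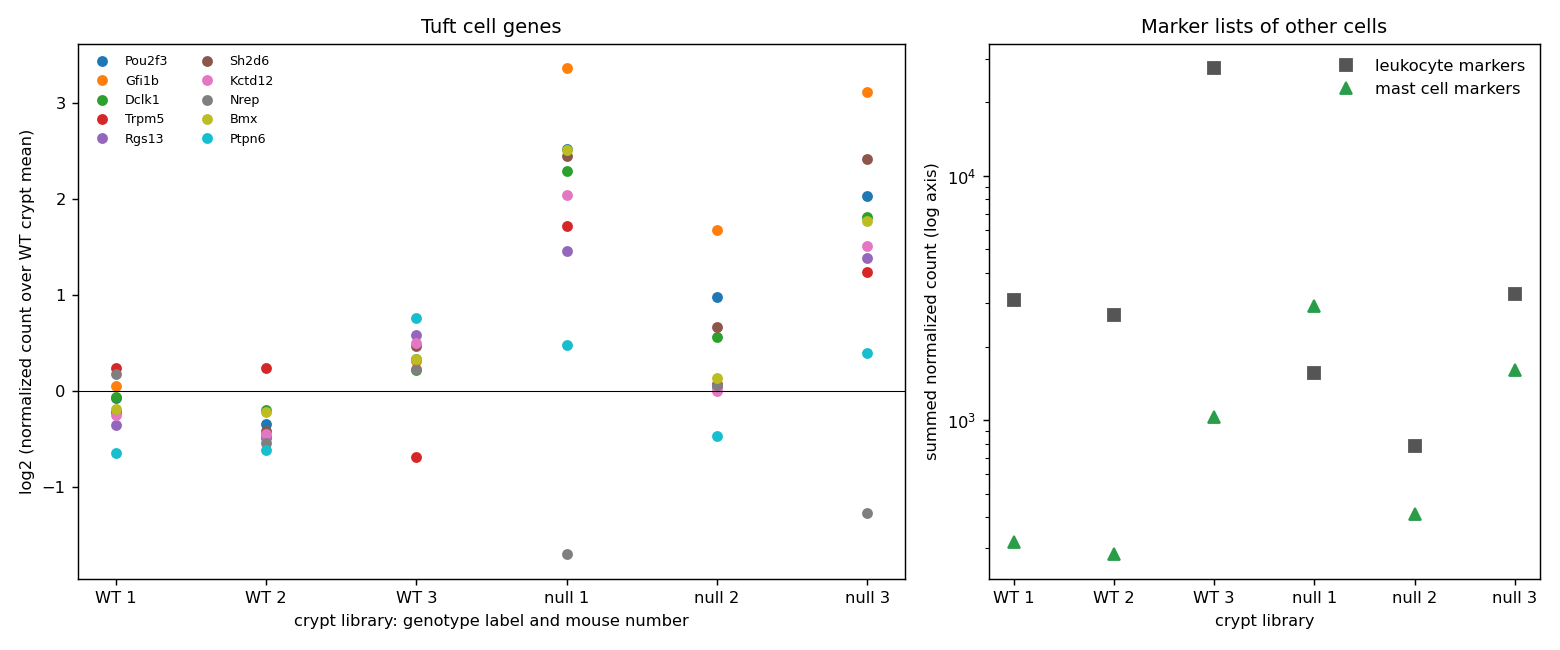
Left, log2 of the normalized count over the WT crypt mean for 10 tuft cell genes in each crypt library; right, summed normalized counts (log axis) of 15 leukocyte and 6 mast cell markers in the same libraries, where null stands for libraries labelled Mtgr1-/-. Null mouse 2 lies near the WT mean for Trpm5, Kctd12, Rgs13, Bmx and Nrep, null mice 1 and 3 lie above it for 9 genes, and WT mouse 3 carries 27491 counts of leukocyte markers.

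After 24 h of culture the direction was the opposite, with 6 of the 9 members tested lower in enteroids labelled Mtgr1-/- and 0 higher by limma (1 at an unadjusted p below 0.05), beside 28.9% of all genes called lower and 30% called higher at the adjusted threshold. This stage asked how the same crypts behave once plated. Kctd12 was the most clearly separated member, at 649, 543 and 511 normalized counts in WT and 252, 224 and 174 in null enteroids of mice 1, 2 and 3. Its log2 fold change was -1.39 ± 0.17 (limma, n = 3 per genotype, adjusted p = 0.000506). Pou2f3 had 46.6, 44.8 and 35.2 against 25.7, 12.3 and 13.2. It fell by 1.32 ± 0.35 on the log2 scale (limma adjusted p = 0.0135), and no null library reached the lowest WT library.

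Dclk1 read 237, 202 and 132 in WT and 121, 104 and 48.5 in null day 1 enteroids (log2 fold change -1.11 ± 0.37, limma adjusted p = 0.032). Rgs13 read 60.4, 42.7 and 34.4 against 22.2, 16.1 and 17.6 (-1.23 ± 0.31, adjusted p = 0.0107). Sh2d6 read 61.3, 67.7 and 41.1 against 39.6, 24.7 and 13.2 (-1.20 ± 0.42, adjusted p = 0.0379). In each of the 3 genes the null libraries lay below the WT libraries, by a narrow gap in Sh2d6 and Dclk1. The call of Sh2d6 was lost without WT mouse 1, WT mouse 2, null mouse 2 or null mouse 3 (adjusted p = 0.0546 to 0.118), and under quantile normalization, array weights and log2 Xist as a covariate (0.0513 to 0.107). That of Dclk1 was lost without WT mouse 1, WT mouse 2 or null mouse 3 (adjusted p = 0.0618 to 0.107), with an estimate of -0.71 without null mouse 3. It was also lost under quantile normalization (limma adjusted p = 0.0665) and without a mean-variance trend (0.0533). Without both mouse 3 libraries the calls of Pou2f3 and Sh2d6 were lost (limma adjusted p = 0.0596 and 0.0588).

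Nrep had 21.9, 19.8 and 15.9 normalized counts in WT and 2.33, 6.64 and 5.51 in null enteroids, and its log2 fold change of -1.87 ± 0.47 (limma adjusted p = 0.0102) rested on a gene that reached a mean of 10 through the WT libraries. Bmx had 31.1, 28.1 and 35.2 against 15.2, 18.02 and 2.21, which did not overlap but missed the threshold (-1.70 ± 0.67, adjusted p = 0.0573), with null mouse 3 far below the others. Gfi1b was too low to be tested, with 18 reads over 3 WT libraries (exact 95% Poisson interval 10.67 to 28.45) and 7 over 3 null libraries (2.81 to 14.42). Its null libraries (4.66, 1.90 and 1.10 normalized counts) lay below the WT libraries (5.49, 5.21 and 5.87), and the difference was not tested.

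Trpm5 and Ptpn6 did not follow. Trpm5 had 186, 159 and 126 normalized counts in WT and 185, 111 and 141 in null day 1 enteroids. The groups overlapped, with a log2 fold change of -0.12 ± 0.24 (limma adjusted p = 0.684) whose sign turned to 0.10 under quantile normalization and 0.14 with weighted libraries. Ptpn6 had 433, 394 and 459 against 584, 443 and 645 (0.36 ± 0.16, adjusted p = 0.0765). Same-numbered libraries deviated together weakly at day 1 (correlations 0.116, 0.231 and 0.216), and no label pairs them. When mouse number entered the fit as a block Ptpn6 was called higher (limma adjusted p = 0.028), and no other member's call changed.

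In all, 7 of 9 members had every null day 1 library below every WT library, beside 33.9% of all genes tested (34.2% had every null library above), and the median of the members was -1.23 on the log2 scale, beside -0.01 over all genes. Without WT mouse 1, Kctd12 and Nrep were the 2 members still called lower at day 1. Scaling to the total count instead of the authors' size factors put the median of all genes at -0.33 at day 1 and at -0.20 at day 3. At day 1 the split of all calls, 3776 higher and 3637 lower, became 2200 and 5614 under it, and the day 3 split of 3826 and 3719 became 2748 and 5089.

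At 72 h, 8 of the 9 tested members were lower in enteroids labelled Mtgr1-/- and 1 was higher, beside 29.1% and 29.9% of all genes. Pou2f3 had 43.9, 72.1 and 61.0 normalized counts in WT and 15.9, 16.9 and 20.2 in null enteroids, and fell by 1.66 ± 0.27 on the log2 scale (limma, n = 3 per genotype, adjusted p = 0.00132). Nrep showed the largest fall among the members, from 58.3, 38.3 and 42.6 to 11.4, 8.95 and 13.5 (log2 fold change -1.94 ± 0.30, limma adjusted p = 0.00101). Kctd12 had 523, 403 and 462 against 125, 171 and 195 (-1.51 ± 0.18, adjusted p = 0.000339). The null libraries were closer to each other here than in crypts, where the highest and lowest null mouse of Pou2f3 stood at 348 and 119.

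Dclk1 had 212, 168 and 163 in WT and 86.5, 92.5 and 71.9 in null day 3 enteroids (log2 fold change -1.10 ± 0.17, limma adjusted p = 0.00117). Rgs13 had 51.1, 41.9 and 43.6 against 20.5, 24.9 and 16.8 (-1.11 ± 0.25, adjusted p = 0.0064). Sh2d6 had 58.3, 42.8 and 39.7 against 23.9, 15.9 and 28.1 (-1.04 ± 0.30, adjusted p = 0.0169). All 3 genes lay below the WT minimum in every null library.

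Bmx had 28.7, 39.2 and 28.1 against 12.5, 21.9 and 7.86 (log2 fold change -1.22 ± 0.40, limma adjusted p = 0.0277). Trpm5, which had not passed at day 1, had 126, 104 and 118 against 91.0, 71.6 and 76.4, and its fall was the smallest of the 8 (-0.54 ± 0.17, adjusted p = 0.0257). In 8 of the 9 every null library lay below every WT library, beside 34.2% of all genes, and in 1 above, beside 34.6%. That 1 was Ptpn6, which rose from 421, 451 and 437 to 599.6, 649 and 651 (0.54 ± 0.09, adjusted p = 0.00159). Without WT mouse 1 the lower calls of Trpm5, Sh2d6 and Bmx were lost, which left 5, and without both mouse 3 libraries those of Trpm5, Rgs13 and Bmx were lost, which again left 5. Over the 6 fits that left out 1 library, the call of Bmx was lost in 5 (adjusted p = 0.0505 to 0.103) and that of Trpm5 in 4 (0.0517 to 0.093).

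The leukocyte sum was 46.6 to 73.6 in WT and 95.6, 114 and 926 in null day 3 enteroids, with the highest value in null mouse 3, and at day 1 null mouse 3 was again the highest at 982. Of these markers only Csf1r passed, higher among 13 tested at day 1 and 8 at day 3. Of 4 mast cell markers tested, Mcpt1 and Mcpt2 were higher and Kit lower at both stages. Among all genes, limma called 30% up and 28.9% down after 24 h, against 29.9% up and 29.1% down after 72 h. Csf1r (WT mean 0.86 after 24 h, 3.78 after 72 h) passed the filter of a mean of 10 through the null libraries. So did Mcpt1 after 72 h (WT mean 1.83). Those calls therefore support nothing by themselves. At day 3, Kit read 419 to 462 in WT enteroids, where Cpa3, Fcer1a and Tpsb2 were 0. Mcpt2 read 676 and 952 in null mice 1 and 2, where Fcer1a and Tpsb2 were 0. In null mouse 3 Mcpt2 read 719, beside Cpa3 at 60.6, Fcer1a at 15.7 and Tpsb2 at 38.2. Csf1r read 59.2 in null mouse 1, where Ptprc read 3.41. Which cells carried Kit, Mcpt2 and Csf1r in the enteroids was not tested. The rise of Ptpn6 at day 3 was 0.52 on the log2 scale without both mouse 3 libraries (adjusted p = 0.0382). The part of leukocytes in the Ptpn6 value was not tested. Gfi1b had 10 reads over the 3 WT libraries (exact 95% Poisson interval 4.8 to 18.39) and 15 over the 3 null libraries (8.40 to 24.74) at day 3 and was not tested.

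The change in the genotype difference between crypts and culture was itself tested. In a fit of all 18 libraries with mouse as a random effect, the genotype difference fell between crypts and day 1 in 7 of 10 members and rose in none, beside 19.8% and 20% of 12958 genes. Apart from Gfi1b, the differences of differences ran from -2.26 ± 0.51 for Rgs13 to -3.18 ± 0.87 for Bmx, with Pou2f3 at -3.17 ± 0.51 (limma adjusted p = 0.000867) and Dclk1 at -2.67 ± 0.54 (adjusted p = 0.00238). Gfi1b was at -3.61 ± 0.85, but it passed the filter of this fit through the null crypts, had 18 WT and 7 null reads at day 1 and was not tested within that stage. Without mouse 3 of both genotypes the calls of Gfi1b and Bmx were lost (limma adjusted p = 0.0933 and 0.0961). That of Bmx was also lost without WT mouse 1 (0.0519). Trpm5 at -1.18 ± 0.48 (adjusted p = 0.0594), Nrep at -0.99 ± 0.60 (adjusted p = 0.207) and Ptpn6 at 0.07 ± 0.43 (adjusted p = 0.908) did not pass. Between crypts and day 3 the difference fell in 7 members and rose in 0, beside 13.6% and 17.3% of all genes, now with Trpm5 (-1.60 ± 0.48, adjusted p = 0.0214) and without Gfi1b (-2.16 ± 0.85, adjusted p = 0.0651). This call of Trpm5 was lost in 5 of the 6 fits that left out 1 mouse (adjusted p = 0.0532 to 0.094) and without mouse 3 of both genotypes (0.255), and that of Bmx in 4 of the 6 (0.0681 to 0.13). Without WT mouse 1 the count of 7 became 4. Between day 1 and day 3 the genotype difference of 0 of 10 members changed by limma at the adjusted threshold, beside 0.00772% of genes that fell and 0.0232% that rose. At an unadjusted p below 0.05 the count was also 0 of 10, and the share of all genes at that threshold was not counted.

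Members fell from crypts to day 1 in both genotypes, on values rescaled across tables that had been normalized separately. In WT, 5 of 10 members fell between crypts and day 1 and 0 rose by limma (beside 28.8% and 25.9% of all genes), namely Trpm5 (-1.96 ± 0.34 on the log2 scale), Rgs13 (-1.67 ± 0.36), Sh2d6 (-1.43 ± 0.46), Dclk1 (-1.02 ± 0.38) and Ptpn6 (-0.997 ± 0.306) (limma adjusted p = 0.000206 to 0.0324). In libraries labelled Mtgr1-/- all 10 members fell (beside 20% of all genes, with 17.6% higher), from -0.93 ± 0.31 for Ptpn6 to -4.51 ± 0.46 for Sh2d6, with Pou2f3 at -3.82 ± 0.36 (adjusted p = 1.1e-06). Gfi1b is among the 10 and passed the filter of this fit through the null crypts, so its fall supports nothing by itself. The call of Ptpn6 was lost without null mouse 1 (limma adjusted p = 0.183) or null mouse 3 (0.127). That of Nrep was lost without mouse 3 of both genotypes (0.0792). The WT count was 3 without WT mouse 1, 2 without WT mouse 3 (Rgs13 and Trpm5), 7 without null mouse 2 and 1 without mouse 3 of both genotypes (Trpm5). From day 1 to day 3, 0 of 10 members passed in either genotype by limma (1 in WT and 2 in null at an unadjusted p below 0.05). At the adjusted threshold the shares of all genes were 2.82% higher and 4.92% lower in WT and 6.92% higher and 7.56% lower in null.

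The other genes of the tuft cell programme were taken from 4 lists of 53 genes in all, of which 47 were tested in crypts and 38 at each enteroid stage. In crypts 41 of the 47 had a positive estimate, but 2 were called higher and 1 lower, and 23 were higher at an unadjusted p below 0.05 (beside 8.53% of all genes). Of these 23, Hmx2, Hmx3, Vmn2r26 and Chat passed the filter through the null libraries. At day 1, 8 of 38 were called higher and 10 lower (beside 30% and 28.9% of all genes), and at day 3, 12 were higher and 10 lower (beside 29.9% and 29.1%). These shares of all genes, and 1.58% and 3.15% in crypts, are the background of each smaller list that follows. The median log2 fold change of the 4 lists together was 1.15 in crypts, -0.56 at day 1 and 0.02 at day 3. Null mouse 2 was again the lowest null crypt in 40 of the 47, and null mouse 1 the highest in 37, and leaving out null mouse 2 raised the crypt count from 2 to 13 higher, while leaving out null mouse 1 gave 1 and leaving out WT mouse 1, WT mouse 2 or null mouse 3 gave 0.

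Among the 6 other regulators, 0 passed in crypts, with 4 higher at an unadjusted p below 0.05, and Hmx3, a homeobox factor of the lineage, read 8.14 ± 4.42 in WT and 41.5 ± 20.3 in null crypts (limma adjusted p = 0.106, n = 3 per genotype, singled out after its values were seen). Hmx3 and Hmx2 (8.84 ± 4.58 in WT, 38.4 ± 25.2 in null) passed the filter through the null libraries. Their place among the 4 therefore supports nothing by itself. In enteroids the regulators went in opposite directions. 1810046K07Rik (Pou2af2), the co-activator that binds POU2F3, rose at day 1 from 107 ± 16.7 to 426 ± 189.9 (log2 fold change 1.90 ± 0.32, adjusted p = 0.00191) and at day 3 from 70.1 ± 3.02 to 142 ± 46.7 (0.96 ± 0.25, adjusted p = 0.0107), while Pou2f3 fell at both stages. Sox4, a SOX factor upstream of tuft and endocrine fates that is widely expressed, was 1814 ± 234 in WT and 578 ± 40.7 in null enteroids at day 1 and fell there by 1.64 ± 0.12. Its day 3 fall was 1.61 ± 0.19, with 2966 ± 151 in WT and 996 ± 276 in null. At day 3 the ETS factor Spib also fell (-0.69 ± 0.22, adjusted p = 0.0264) and Runx1 rose (0.65 ± 0.16, adjusted p = 0.00841).

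In chemosensory signalling, 7 of the 11 listed genes were tested in crypts and 1 rose. Vmn2r26, a vomeronasal-type receptor, had 3.83 ± 2.58 normalized counts in WT and 60.9 ± 31.6 in null crypts (log2 fold change 3.69 ± 0.71, limma adjusted p = 0.0344), and it passed the filter through the null libraries. In enteroids, Itpr3, the calcium release channel downstream of taste receptors that other epithelial cells also express, rose by 0.46 ± 0.09 at day 1 and 0.33 ± 0.09 at day 3, but under total-count scaling these were 0.14 and 0.13 and did not pass (limma adjusted p = 0.207 and 0.312). Plcg2, a phospholipase, fell at day 1 by 0.55 ± 0.13.

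Effector genes had the highest list median in crypts, 1.66 over 10 tested, with 0 called and 7 higher at an unadjusted p below 0.05. Among the 7, Chat (6.04 ± 3.85 in WT, 32.6 ± 16.9 in null) passed the filter through the null libraries. Alox5, which starts leukotriene synthesis, read 91.4 ± 41.0 in WT and 551 ± 333 in null crypts (log2 fold change 2.43 ± 0.56, limma adjusted p = 0.06, singled out after its values were seen). In enteroids 4 rose and 1 fell at each stage. The prostaglandin D synthase gene Hpgds rose by 1.21 ± 0.34 at day 1 and 1.97 ± 0.29 at day 3, the leukotriene C4 synthase gene Ltc4s by 0.90 ± 0.34 and 1.03 ± 0.30, and the type 2 cytokine receptor genes Il13ra1 and Il4ra by 0.98 ± 0.17 and 0.91 ± 0.20 at day 1 and by 0.97 ± 0.09 and 1.37 ± 0.10 at day 3. Pla2g4a, which releases arachidonic acid from membranes, fell by 2.45 ± 0.30 and 1.89 ± 0.11. When mouse number entered as a block, Ltc4s lost its day 1 call (limma adjusted p = 0.0809), and Tuba1a, Spib, Vav1 and Siglecf were among the genes then called lower at day 1. These effector genes are also expressed outside tuft cells.

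Of the 24 structure and adaptor markers, 1 rose and 1 fell in crypts, where the median was 1.11. Krt18, a keratin of all simple epithelia, rose from 4364 ± 349 to 6502 ± 439.6 (log2 fold change 0.58 ± 0.10, limma adjusted p = 0.0237), and Hepacam2, an adhesion protein that goblet and endocrine cells also express, fell from 1059.8 ± 129 to 226 ± 114 (-2.35 ± 0.37, adjusted p = 0.0173). At day 1, 2 rose and 7 fell, led by Espn (2.20 ± 0.21) and Bpgm (0.52 ± 0.12) upward and by Hepacam2 (-4.55 ± 0.17), the calcium pump Atp2a3 (-2.54 ± 0.13) and Cd24a (-2.21 ± 0.17) downward. At day 3, 5 rose and 7 fell, with Espn (2.00 ± 0.16), Krt18 (0.97 ± 0.10) and Tspan6 (0.88 ± 0.27) highest and the same 3 genes lowest, Hepacam2 at -3.71 ± 0.15, Cd24a at -2.34 ± 0.14 and Atp2a3 at -2.23 ± 0.12. Espn bundles actin in brush borders, and enterocytes express it too. Under total-count scaling the rises of Bpgm and Ltc4s at day 1 and of Runx1, Tspan6 and Tuba1a at day 3 kept their sign and no longer passed.

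**Figure D4:**
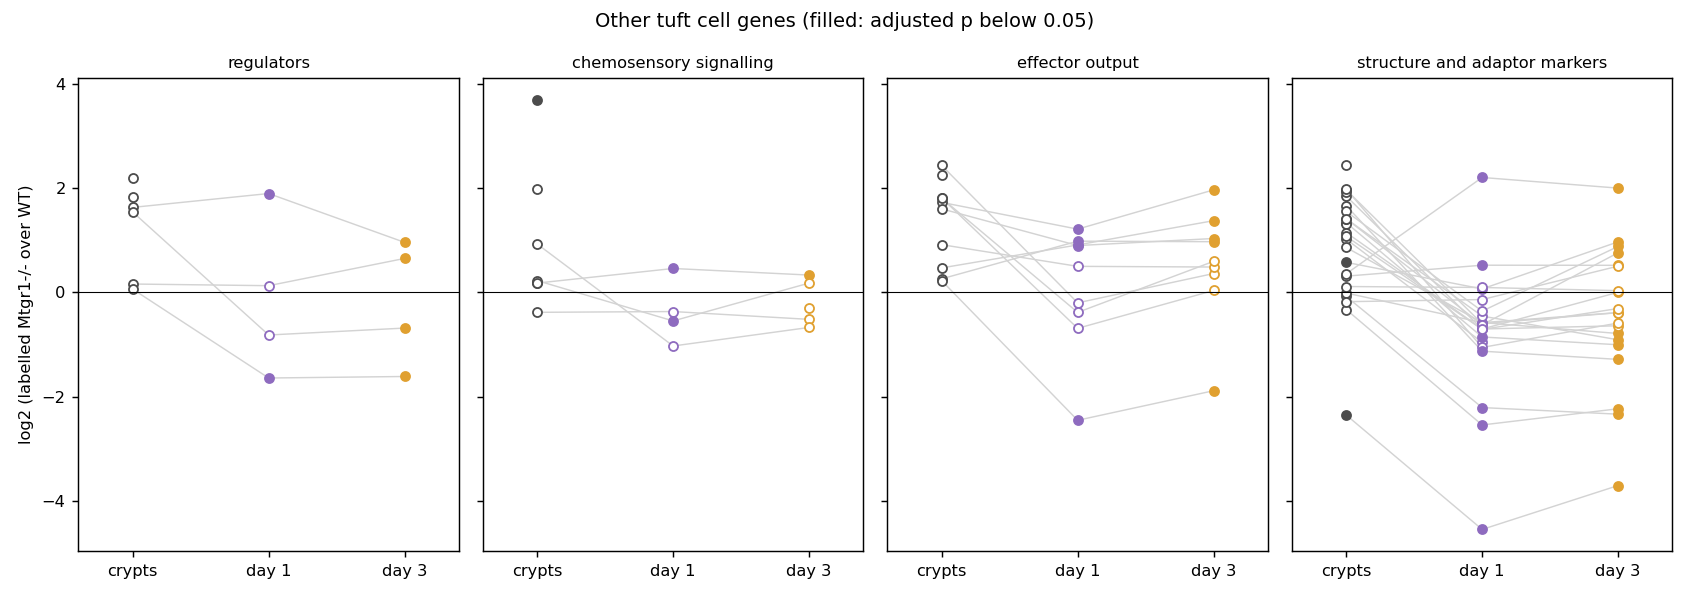
Log2 fold change of libraries labelled Mtgr1-/- over WT for the tested genes of 4 lists of other tuft cell genes at crypts, day 1 and day 3; each point is a gene, grey lines join the same gene, and filled points have an adjusted p below 0.05. Most crypt points lie above 0 and are open, and in enteroids the lists split into filled points on both sides.

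The members also varied together within groups. After each group's mean was subtracted, the log2 values of Sh2d6, Rgs13, Kctd12, Dclk1 and Pou2f3 had median Pearson correlations of 0.72, 0.72, 0.72, 0.71 and 0.69 with the other members over the 18 libraries, which came from 6 mice. The closest pair was Dclk1 and Sh2d6 at 0.87. Trpm5 and Gfi1b had medians of 0.45, Ptpn6 0.38, and Nrep ran against the rest at -0.47. In the 6 crypt libraries alone, Kctd12 had a median of 0.97 and Pou2f3 of 0.96, and in the 12 enteroid libraries these were 0.31 and 0.31, so that the shared variation was larger in crypts. The points share libraries and, in crypts, the spread of null mouse 2 against null mice 1 and 3.

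**Figure D5:**
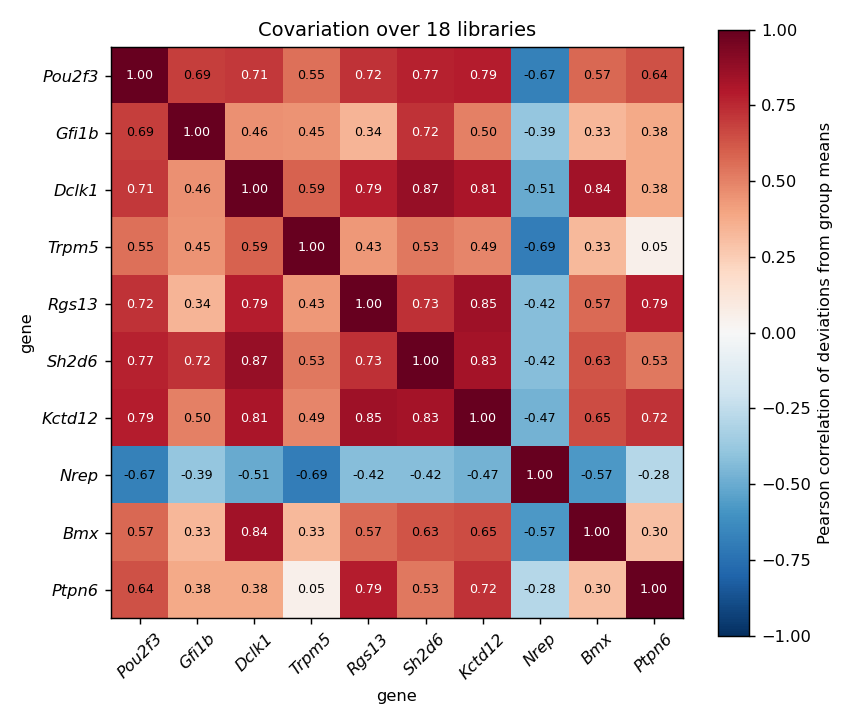
Pearson correlations of log2 values of the 10 tuft cell genes after the mean of each genotype and stage was subtracted, over 18 libraries. The block of Dclk1, Sh2d6, Kctd12, Rgs13 and Pou2f3 is red, with Dclk1 and Sh2d6 at 0.87, and the row of Nrep is blue.

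Over all 18 libraries, with group differences kept, the 5 genes whose pattern was most like that of Pou2f3 among 12145 genes were Strip2 (Pearson r = 0.979), Sh2d7 (0.957), Dclk1 (0.955), Kctd12 (0.952) and Sh2d6 (0.945). For Trpm5 they were Gprc5c (0.958), Idh3a (0.948), Rnf141 (0.947), Sh2d7 (0.937) and Siglecf (0.935). Both sets of correlations are over libraries that share mice and stage.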

How the data were processed

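RNA sequencing libraries were prepared by the authors from 6 mice, 3 labelled Mtgr1+/+ and 3 labelled Mtgr1-/-, at 3 stages (crypts, 24 h and 72 h enteroids), with a stranded mRNA kit and 50 bp reads. Per the study's methods and the submitters' notes, reads were trimmed with fastp 0.20.0, quantified with Salmon 1.3.0 against GENCODE M21 (GRCm38), imported with tximeta 1.4.5 and normalized with DESeq2 1.26.0 in R 3.6.3. The values used are the deposited signal columns, which hold gene counts that the authors divided by each library's size factor within a stage. The deposited tables also hold the authors' log2 fold changes with their errors, a test score and p-values, and none of these were used.

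Values were tested as log2(normalized count + 1) with limma 3.58.1 (empirical Bayes with a trend, two-sided, Benjamini-Hochberg adjustment over all genes with a mean of at least 10, threshold 0.05), in R 4.3.3, one fit per stage with 3 mice per genotype. Fold changes on this scale understate those of low genes. An exact permutation of 3 against 3 cannot go below p = 0.10, so per-gene permutation p-values were not used, and the p-values of limma rest on the spread between mice, which the labels give as separate animals. A further limma fit took all 18 libraries after rescaling the tables to common size factors (genes with a mean of at least 100), with mouse fitted as a random term (estimated correlation 0.00922 between libraries of a mouse), for changes between stages. Tests across stages therefore rest on tables that the authors normalized separately. Figures and lists were computed with Python 3.11.15 (pandas 2.3.3, numpy 2.4.6, scipy 1.17.1, matplotlib 3.10.9).

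Dividing each value by its library's step gave whole reads, within 0.001, for 100% of values in all 18 libraries (22035316 to 29661084 reads), which served edgeR 4.0.16 and DESeq2 1.42.0 as alternatives only. The limma fit was tested on simulated counts: for crypts it called 91 of 100 genes changed by 1 and 97 of 100 changed by 2 on the log2 scale among 12939 genes, with 15 false calls. The simulation gave all genes the same small dispersion and no further spread between mice. In the real crypts Pou2f3 ranged from 119 to 348 normalized counts among the null mice. The simulated recovery is therefore not the power of the crypt test for the tuft cell genes. Poisson intervals cover counting error only.

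The 10 genes, the lists of related genes and the tests were chosen with earlier results of these data known. Named genes were all 10 members, from each list the up to 3 largest rises and falls past the threshold at each stage, the 5 genes most like Pou2f3 and Trpm5, and Cbfa2t2 and Olfm4 as label checks; other names were chosen after their values were seen. Genotypes share the mouse numbers 1 to 3. The pairing was checked by correlating the deviations of same-numbered libraries from their group means: 0.076, 0.274 and 0.346 in crypts, 0.116, 0.231 and 0.216 at day 1, and -0.007, -0.002 and -0.016 at day 3. The numbers were taken to pair libraries at day 1 only, where every pair was above 0.1, from the data and not from a label. This choice rests on that cut-off, since the crypt values 0.274 and 0.346 were larger than any at day 1. Whether the numbers pair mice is therefore not settled. Alternatives tried were other pseudocounts (0.1 and 8), filters, scalings, weights, tools, the replicate block and leaving out each mouse. Leaving out both mouse 3 libraries and adding log2 Xist as a covariate were chosen after seeing the data. Promoter windows and sequence came from RefSeq (GRCm38.p6), and Pou2f3 and Nrep were not in that table.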

Additional observations from a re-analysis of the deposited data

Results flagged for a closer look

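Between stages, the genotype difference of 8 members changed past the threshold, counted over the changes from crypts to day 1 and from crypts to day 3 together. These were tested within the fit of 18 libraries (limma, adjusted p below 0.05 over 12958 genes). Of all genes, 19.8% fell and 20% rose from crypts to day 1. From crypts to day 3, 13.6% fell and 17.3% rose. From crypts to day 1 the difference moved on the log2 scale by -3.18 for Bmx, -3.17 for Pou2f3, -3.08 for Sh2d6, -2.67 for Dclk1, -2.64 for Kctd12 and -2.26 for Rgs13. Gfi1b moved by -3.61, but it passed the filter through the null crypts and had 18 WT and 7 null reads at day 1. The calls of Bmx and Gfi1b to day 1 were lost without mouse 3 of both genotypes, and that of Bmx also without WT mouse 1. From crypts to day 3 the difference moved by -3.50 for Pou2f3, -2.91 for Sh2d6, -2.74 for Kctd12, -2.69 for Bmx, -2.65 for Dclk1, -2.13 for Rgs13 and -1.60 for Trpm5. Of these, the call of Trpm5 was lost in 5 and that of Bmx in 4 of the 6 fits that left out 1 mouse. Both sets share the crypt libraries, in which null mouse 2 had the lowest null value of 9 of the 10 genes, and each adds a negative enteroid difference to a positive crypt difference that passed by itself only for Gfi1b.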

How the results depend on the processing

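The crypt counts depended most on the processing, and the cause was not tested. Members called higher in crypts were 1 as reported, 2 with at least 10 normalized counts in every library of 1 genotype, with quantile normalization, with total-count scaling and with log2 Xist as a covariate, 3 with the mouse number as a replicate block (Pou2f3, Gfi1b and Sh2d6), 6 by DESeq2, 9 with array weights and 0 without both mouse 3 libraries, and leaving out 1 library gave 0 to 6. Other tuft genes called higher in crypts were 2, against 1 without a mean-variance trend, 4 with total-count scaling, 4 with the replicate block, 7 with log2 Xist, 9 with quantile normalization, 18 by DESeq2, 31 with array weights and 1 without both mouse 3 libraries, and 0 to 13 without 1 library. The 1 called lower became 0 without both mouse 3 libraries and 0 to 1 without 1 library.

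At day 1, 1 member was called higher (0 as reported) with quantile normalization, array weights or the replicate block, and 0 to 1 without 1 library. Members lower numbered 2 to 6 without 1 library (6 as reported). Other tuft genes higher went from 8 to 5 with total-count scaling and to 5 without both mouse 3 libraries, and those lower from 10 to 17 with total-count scaling. Members lower at day 3 went from 8 to 5 without both mouse 3 libraries and ranged from 5 to 7 without 1 library.

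Across stages, members that fell in WT from crypts to day 1 went from 5 to 1 without mouse 3 of both genotypes and ranged from 2 to 7 without 1 library. From day 1 to day 3 the count was 0 to 1 in WT and 0 to 2 in null without 1 library, and 1 in null with mouse as a fixed replicate block. The change of the genotype difference from crypts to day 3 was called in 4 to 7 members without 1 library.

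Estimates that changed sign belonged to members that had not passed. Trpm5 at day 1 (-0.12) was 0.10 with quantile normalization, 0.14 with array weights, and -0.31 to 0.06 without 1 library. The change for Ptpn6 from crypts to day 1 (0.07) was -0.29 with total-count scaling, -0.33 without mouse 3 of both genotypes and -0.35 to 0.32 without 1 library, and that to day 3 (0.26) was -0.11 without mouse 3 and -0.23 to 0.51 without 1 library. The alternatives without both mouse 3 libraries and with log2 Xist were chosen after seeing the data. The replicate block changed no other member's call at day 1 than that of Ptpn6.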
